A study of Capra hircus with 9 samples.

Results

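The genes described here encode the enzymes that build mucin-type and related glycan chains in the submandibular gland of female Lubo goats. They were chosen by symbol: all numbered GALNT, GCNT, B3GNT, B4GALT, B3GALT, ST3GAL, ST6GAL, ST6GALNAC and FUT genes, together with C1GALT1 and C1GALT1C1. The rule found 66 of the 21665 genes of the expression table. Glands of 3 healthy goats were sequenced at each of 3 ages, namely 1-month-old kids (1 month), 12-month-old unbred adolescents (12 months) and 24-month-old adults (24 months), with 1 library per animal, 9 libraries in all and no treatment or genotype apart from the breed and sex that all the goats shared. Age and whatever changes with it, such as breeding stage, cannot be told apart here. Levels are given as CPM, the count of a gene scaled to a common library total, after TMM normalization over all 9 libraries. CPM is not corrected for transcript length, so levels were compared between libraries for a gene and not between genes.

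Salivary mucins carry dense O-linked sugar chains, and these chains hold water and give saliva its viscosity. Chain building starts in the Golgi, where a polypeptide GalNAc-transferase (GALNT) places a GalNAc on a serine or threonine. Core enzymes (C1GALT1, GCNT) then add galactose or a branch, the B3GNT, B4GALT and B3GALT enzymes lengthen the chain, and sialyltransferases and fucosyltransferases cap it. Several of the same enzymes also work on N-linked chains and on glycolipids.

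The library labelled 1-month replicate 2 went against its label. Its depth was within the range of the others, which was 20061986 to 26328835 expected counts per library, but its 11 measured salivary acinar markers summed to 111.9 CPM. The same list reached 26160 and 18490 CPM in 1-month replicates 1 and 3 and 83940 to 164300 CPM in the 6 older libraries. AQP5, the water channel of acinar cells, stood at 0.49 CPM in it and at 217 and 128 CPM in the other 1-month libraries. Its thymocyte markers (15 of 15 measured) summed to 16420 CPM, against 4279 and 2203 CPM in 1-month replicates 1 and 3 and 14.1 to 34.2 CPM at the older ages. Thymic epithelium markers (6 of 6 measured) stood at 1107 CPM in it, at 267 and 102.7 CPM in the other 1-month libraries and at 2.59 CPM or less later, and cell cycle markers (7 of 7) at 2737 CPM, 870 to 1022 CPM and 41.2 CPM or less. All 3 of the 1-month libraries thus held more thymus and cell cycle marker RNA and less acinar marker RNA than any older library. The main counts of genes called against 1 month are therefore given with and without replicate 2. Fold changes without it are given for only some of the genes. The part of these marker lists in the results was not tested. In whole tissue, fewer cells of a type and less RNA per cell cannot be told apart.

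**Figure D1:**
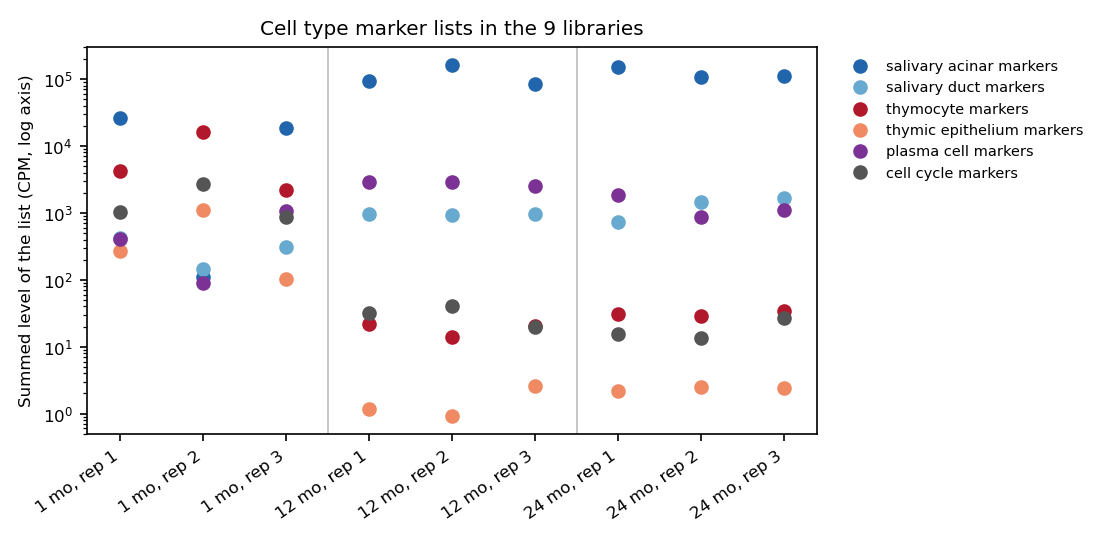
Summed level of 6 cell type marker lists (CPM, log axis) in each of the 9 libraries, 1 point per list and library. In 1-month replicate 2 the acinar list sits at 111.9 CPM, under the thymocyte list at 16420 CPM, while in all 6 older libraries the acinar list is at 83940 CPM or more.

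Of the 66 genes, 51 had over 3 counts in all 9 libraries. A library's limit for a count of 0, set at 3 counts, corresponded to 0.0835 to 0.175 CPM. The filter on low counts kept 56 of the genes for each comparison with 1 month and 55 for 24 against 12 months. The other 9 genes reached none of these 3 comparisons: B3GALT1, B3GNT4, B3GNT6, FUT7, FUT9, GALNT13, GALNT4, GALNT8 and GCNT7. FUT9 had a count of 0 in every library, and the others had at most 1.17 CPM in any library. For GALNT4, GCNT2, FUT2 and FUT3 the annotation lists the known transcripts under LOC identifiers, so only newly assembled transcripts entered under these symbols. The levels of those LOC transcripts are given beside the gene where it is described.

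The first question of the design was how the kid gland differs from the adolescent gland. Between 12 months and 1 month, 9 of 56 glycosyltransferase genes were called at an adjusted p under 0.05 by edgeR's quasi-likelihood test: 3 were higher at 12 months (GALNT3, GALNT7, ST6GALNAC2) and 6 were lower (B3GNT3, C1GALT1, FUT8, GCNT4, ST3GAL5, ST6GAL1). That is 16.1% of those tested, where 17.5% of all 15229 genes tested were called (5.8% higher and 11.7% lower). The median log2 fold change (older minus younger) was 0.05 over these genes and -0.05 over all genes. The count rested on the libraries in the fit. Without 1-month replicate 2, 31 of 58 were called (18 higher, 13 lower), which is 53.4% against 42.5% of all genes (20.6% higher and 21.9% lower), and all of the 9 were among them. Without 1-month replicate 1 or 3 it was 4 (12.4% and 11.1% of all genes), and without 12-month replicate 1, 2 or 3 it was 0 (0.0%, 0.387% and 0.709% of all genes). For 30 of 56 genes the 12-month and 1-month libraries did not overlap, where 53.2% of all genes did not.

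Between 24 months and 1 month, 9 of 56 were again called, of which 2 were higher at 24 months (GALNT6, ST6GALNAC2) and 7 lower (B3GNT3, C1GALT1, FUT8, GCNT4, ST3GAL4, ST3GAL5, ST6GAL1). The background was 17.1% of 14993 genes (6.52% higher and 10.6% lower), and the 9 are 16.1% of those tested. The median was 0.36 over these genes and -0.04 over all genes. Without 1-month replicate 2, 21 of 57 were called (11 higher, 10 lower), or 36.8% against 28.3% of all genes (13.6% higher and 14.6% lower), again with all of the 9 among them. It was 5 without 1-month replicate 1, 1-month replicate 3 or 24-month replicate 1 (12.5%, 10.1% and 9.38% of all genes), and 0 without 24-month replicate 2 or 3 (2.89% and 1.86%). The libraries of the ages did not overlap for 26 of 56 genes, where 43.6% of all genes did not. Both comparisons share the same 1-month libraries. With a fold threshold added (an absolute log2 fold change over 2), 3 genes were called at 12 months (11.4% of all genes) and 5 at 24 months (13.1%).

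**Figure D2:**
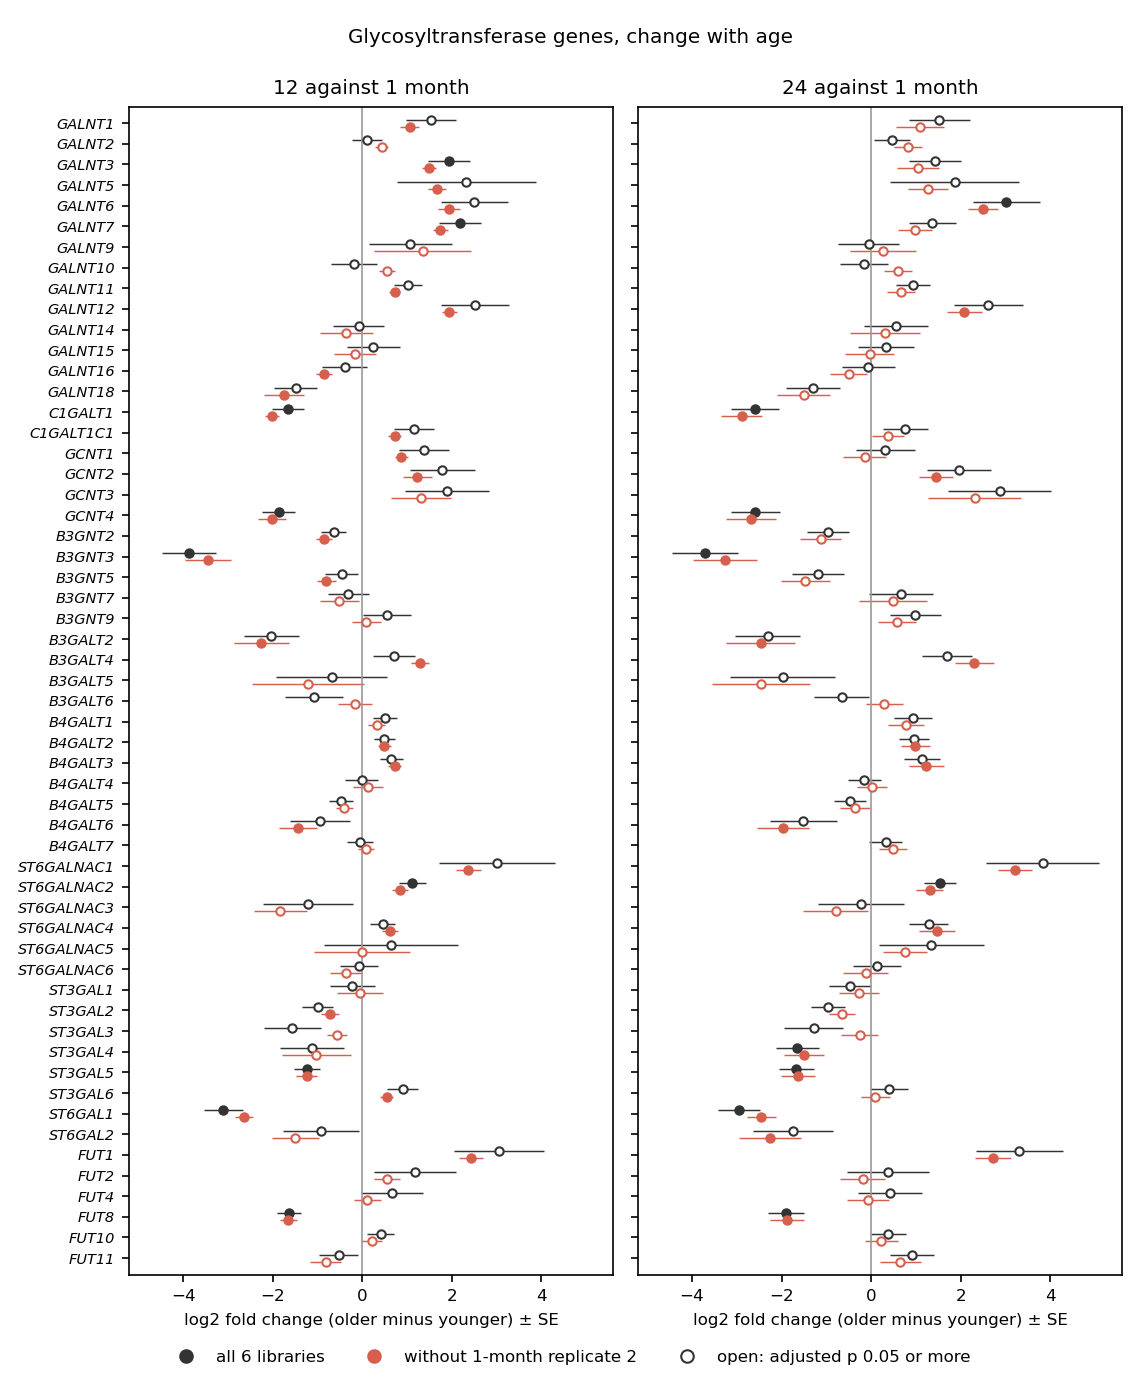
Log2 fold change (older minus younger) ± SE of the 56 glycosyltransferase genes tested in both comparisons with 1 month, by enzyme family, with all 6 libraries (black) and without 1-month replicate 2 (red); filled points have an adjusted p under 0.05. More points are filled in red than in black, 31 against 9 at 12 months and, with FUT3 which is not drawn, 21 against 9 at 24 months.

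The GALNT enzymes start the chains. With all libraries in, 2 of the 14 GALNT genes tested (17 found) rose at 12 months and 1 at 24 months, and none fell. Of all genes tested, 5.8% were higher and 11.7% lower at 12 months, and 6.52% and 10.6% at 24 months. GALNT3, which acts on secreted and cell surface proteins, was at 48.6, 13.0 and 41.0 CPM in the 1-month libraries (replicates 1, 2 and 3), at 134.7, 132.9 and 111.6 CPM at 12 months, and at 148.0, 51.4 and 62.7 CPM at 24 months. All older libraries lay above all 1-month libraries, but 24-month replicates 2 and 3 came close to the 1-month range. The log2 fold change was 1.94 ± 0.47 (SE, adjusted p = 0.0361) at 12 months and 1.44 ± 0.58 (adjusted p = 0.124) at 24 months. Without 1-month replicate 2 it was smaller, at 1.49 ± 0.16 (adjusted p = 0.00159) and 1.04 ± 0.47 (adjusted p = 0.125). With known RefSeq transcripts alone the 12-month adjusted p was 0.0912.

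GALNT7 prefers substrates that already carry a GalNAc, and so follows the first enzymes. It was at 96.7, 26.6 and 74.1 CPM at 1 month, 292.3, 303.2 and 265.0 CPM at 12 months and 221.7, 146.6 and 109.3 CPM at 24 months. The 3 ages did not overlap, and 12 months was the highest. GALNT7 rose by 2.18 ± 0.47 on the log2 scale at 12 months (adjusted p = 0.0261), and the difference at 24 months was 1.37 ± 0.52 (adjusted p = 0.107). Without 1-month replicate 2 these were smaller, at 1.75 ± 0.17 (adjusted p = 0.00131) and 0.985 ± 0.38 (adjusted p = 0.0838).

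GALNT6, a close relative of GALNT3, had the most counts of the family. Its levels were 128.5, 14.5 and 112.4 CPM at 1 month, 483.6, 555.5 and 347.1 CPM at 12 months and 649.7, 646.5 and 615.9 CPM at 24 months. Every 24-month library was above every 12-month library, and every 12-month library was above every 1-month library. The log2 fold change was 3.02 ± 0.75 (adjusted p = 0.0308) at 24 months and 2.50 ± 0.75 (adjusted p = 0.0607) at 12 months. Without 1-month replicate 2 it was smaller, at 2.49 ± 0.335 (adjusted p = 0.0016) and 1.94 ± 0.24 (adjusted p = 0.00247). Newly assembled transcripts carried most of its counts, and with known RefSeq transcripts alone the 24-month difference was 2.49 (adjusted p = 0.0581).

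GALNT5 and GALNT12, picked after their values were seen, showed how much 1-month replicate 2 weighed. GALNT5 stood at 77.2, 0.0349 and 55.4 CPM at 1 month, so that replicate 2 was under the limit of 3 counts. At 12 months it was at 220.7, 185.8 and 228.8 CPM and at 24 months at 236.5, 94.6 and 121.5 CPM. With all libraries in, the 12-month log2 fold change was 2.33 ± 1.54 (adjusted p = 0.299), and without replicate 2 it was 1.67 ± 0.20 (adjusted p = 0.00217). GALNT12 was at 43.2, 4.04 and 36.4 CPM at 1 month and between 116.9 and 227.6 CPM in the 6 older libraries. Its 12-month log2 fold change was 2.52 ± 0.77 (adjusted p = 0.0639) with all libraries and 1.94 ± 0.17 (adjusted p = 0.000963) without replicate 2.

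Without 1-month replicate 2, 7 of 15 GALNT genes were higher at 12 months (GALNT1, GALNT3, GALNT5, GALNT6, GALNT7, GALNT11 and GALNT12) and 2 lower (GALNT16 and GALNT18). At 24 months 2 of 14 were higher (GALNT6 and GALNT12) and none lower. Of all genes tested in these fits, 20.6% were higher and 21.9% lower at 12 months, and 13.6% and 14.6% at 24 months. GALNT1, an enzyme with broad substrate range, was at 251.1, 50.2 and 181.6 CPM at 1 month, 373.6 to 521.6 CPM at 12 months and 754.3, 340.3 and 208.0 CPM at 24 months. GALNT2, also of broad range, lay between 46.0 and 97.9 CPM in all libraries and overlapped between all ages. GALNT10 had its highest level, 333.6 CPM, in 1-month replicate 2 and 104.1 to 196.0 CPM in the other 8 libraries. GALNT14, GALNT15, GALNT16, GALNT18 and GALNT9 were low, at 19.9 CPM or less, and GALNT9 reached 9.79 CPM in 12-month replicate 1 against 0.874 to 3.03 CPM elsewhere.

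The known GALNT4 transcript, listed as LOC102172790, was at 24.0, 4.95 and 21.5 CPM at 1 month, 71.9, 67.7 and 57.9 CPM at 12 months and 95.4, 47.2 and 50.6 CPM at 24 months. Added to the GALNT4 rows, it gave a log2 fold change of 2.03 ± 0.54 (adjusted p = 0.0456) at 12 months and 2.03 ± 0.59 (adjusted p = 0.0499) at 24 months. Like GALNT3, its 1-month libraries lay below all older ones.

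**Figure D3:**
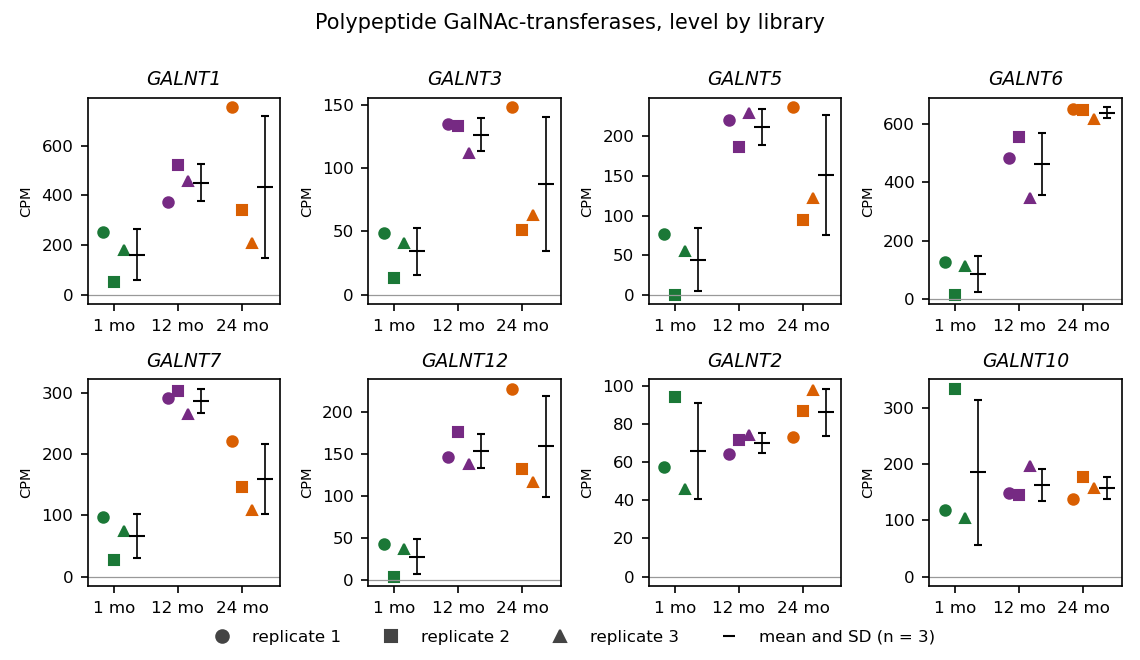
Level (CPM, linear axis) of 8 GALNT genes in each library by age, with replicates as marker shapes and the mean and SD (n = 3) in black. In GALNT1, GALNT3, GALNT5, GALNT6, GALNT7 and GALNT12 the square of 1-month replicate 2 is the lowest of the 9 points, and in GALNT10 it is the highest at 333.6 CPM.

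C1GALT1, the core 1 synthase, adds galactose to the first GalNAc, and C1GALT1C1 (Cosmc) is the chaperone it needs to fold. C1GALT1 was at 77.1, 29.3 and 59.5 CPM at 1 month, 16.6, 16.02 and 18.2 CPM at 12 months and 13.8, 7.36 and 4.84 CPM at 24 months. The 3 ages did not overlap, with the highest levels at 1 month. It fell by 1.66 ± 0.37 on the log2 scale at 12 months (adjusted p = 0.0281) and fell by 2.59 ± 0.53 at 24 months (adjusted p = 0.0172), and without 1-month replicate 2 by 2.01 ± 0.16 (adjusted p = 0.000658) and 2.89 ± 0.45 (adjusted p = 0.00301).

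C1GALT1C1 had the opposite sign. It was at 17.5, 5.72 and 18.4 CPM at 1 month, 28.8, 27.4 and 32.9 CPM at 12 months and 27.6, 22.4 and 15.96 CPM at 24 months. The log2 fold change at 12 months was 1.15 ± 0.44 (adjusted p = 0.109) with all libraries and 0.72 ± 0.15 (adjusted p = 0.0118) without replicate 2. The difference between enzyme and chaperone was not tested.

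The GCNT enzymes add the branch that makes core 2 and related structures. GCNT4 was at 12.2, 8.63 and 9.38 CPM at 1 month, 1.94, 2.70 and 3.38 CPM at 12 months and 1.80, 2.21 and 0.714 CPM at 24 months. Its 1-month libraries, replicate 2 included, all lay above the older ones. It fell by 1.87 ± 0.37 on the log2 scale at 12 months (adjusted p = 0.0210) and fell by 2.58 ± 0.56 at 24 months (adjusted p = 0.0199). The known GCNT4 transcript had 3.39, 3.20 and 9.38 CPM at 1 month and a count of 0 in all 6 older libraries. A newly assembled transcript had 8.78, 5.43 and 0.000634 CPM at 1 month and carried the gene in the older libraries.

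GCNT1, the main core 2 branching enzyme and the GCNT gene with the most counts, was at 35.6, 7.23 and 37.6 CPM at 1 month, 75.5, 66.7 and 59.4 CPM at 12 months and 52.8, 25.9 and 15.1 CPM at 24 months. The 12-month libraries were above all others. The 12-month log2 fold change was 1.38 ± 0.56 (adjusted p = 0.126), and 0.87 ± 0.15 (adjusted p = 0.00619) without 1-month replicate 2. At 24 months the sign depended on replicate 2 (0.31 ± 0.66 with it, -0.14 ± 0.48 without it). GCNT2, which makes the branched I antigen, was at 0.618 to 5.52 CPM at 1 month and 8.93 to 16.5 CPM in the older libraries. Its log2 fold changes were 1.79 ± 0.73 (adjusted p = 0.127) and 1.96 ± 0.71 (adjusted p = 0.0929), and without replicate 2 they were 1.23 ± 0.33 (adjusted p = 0.0267) and 1.44 ± 0.38 (adjusted p = 0.0236). With its LOC transcripts added GCNT2 was at 2.07 to 16.3 CPM and 20.03 to 44.8 CPM, where the log2 fold changes were 1.60 ± 0.67 (adjusted p = 0.135) and 1.93 ± 0.67 (adjusted p = 0.0822). GCNT3 stayed at 4.89 CPM or less.

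The B3GNT enzymes add GlcNAc to galactose and so extend the chains. B3GNT3, which extends core 1, was at 3.26, 9.86 and 6.40 CPM at 1 month, 0.579, 0.330 and 0.396 CPM at 12 months and 0.698, 0.510 and 0.204 CPM at 24 months. All older libraries were at 0.698 CPM or less and below the 1-month libraries, of which replicate 2 was the highest. B3GNT3 fell by 3.86 ± 0.61 on the log2 scale at 12 months (adjusted p = 0.0124) and fell by 3.72 ± 0.74 at 24 months (adjusted p = 0.0155). Without replicate 2 it fell by 3.45 and fell by 3.26, and with known RefSeq transcripts alone the 12-month adjusted p was 0.0543.

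B3GNT2, the main polylactosamine-extending enzyme and the B3GNT gene with the most counts, was at 103.8, 56.8 and 70.1 CPM at 1 month, 49.1, 48.3 and 46.5 CPM at 12 months and 58.1, 35.2 and 19.0 CPM at 24 months. The 12-month libraries were below all 1-month libraries, with a log2 fold change of -0.64 ± 0.28 (adjusted p = 0.145), and of -0.86 ± 0.18 (adjusted p = 0.0129) without 1-month replicate 2. B3GNT5, which starts lacto-series glycolipids, had 10.4 to 24.2 CPM at 1 month, 11.4 to 16.1 CPM at 12 months and 14.6, 4.31 and 4.28 CPM at 24 months. It was lower at 12 months without replicate 2 (adjusted p = 0.0253). B3GNT7 and B3GNT9 were not called against 1 month, with or without that library.

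The B4GALT enzymes add galactose in the beta-1,4 linkage. None of the 7 was called with all libraries in. B4GALT3, with the most counts of the family, was at 45.9, 55.1 and 44.0 CPM at 1 month, 71.5, 67.1 and 84.5 CPM at 12 months and 66.3, 90.4 and 141.1 CPM at 24 months. All older libraries lay above the 1-month ones, and the log2 fold change was 0.65 ± 0.25 (adjusted p = 0.109) at 12 months and 1.13 ± 0.41 (adjusted p = 0.0923) at 24 months. Without 1-month replicate 2, B4GALT2 and B4GALT3 were higher and B4GALT6, which makes lactosylceramide, was lower at both ages. B4GALT1, B4GALT4, B4GALT5 and B4GALT7 were not called with or without it.

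In the B3GALT family (beta-1,3 galactose) 4 of 5 genes were tested and none was called with all libraries in. B3GALT4, a ganglioside enzyme and the member with the most counts, was at 7.29, 16.5 and 5.79 CPM at 1 month, 15.2, 16.4 and 16.4 CPM at 12 months and 18.5, 31.0 and 41.6 CPM at 24 months. Replicate 2 of the 1-month group was at the 12-month level, and the other 2 libraries were below it. The log2 fold change was 0.71 ± 0.46 (adjusted p = 0.287) at 12 months and 1.70 ± 0.56 (adjusted p = 0.0706) at 24 months, and without replicate 2 it was 1.29 ± 0.19 (adjusted p = 0.00446) and 2.30 ± 0.44 (adjusted p = 0.00714). B3GALT2 was at 2.81 to 5.15 CPM at 1 month and 0.306 to 1.54 CPM later, and was lower at both ages without replicate 2. B3GALT6 reached 19.2 CPM in 1-month replicate 2 and 2.86 to 6.53 CPM elsewhere.

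The ST6GALNAC enzymes put sialic acid on the GalNAc at the base of the chain, and ST6GALNAC1 makes the sialyl-Tn antigen. ST6GALNAC1 was at 66.8, 0.491 and 45.8 CPM at 1 month, 246.7, 372.9 and 253.7 CPM at 12 months and 438.6, 467.9 and 573.9 CPM at 24 months. The 3 ages did not overlap and 24 months was the highest, while 1-month replicate 2 was near 0. With all libraries in, the log2 fold change was 3.01 ± 1.30 (adjusted p = 0.140) at 12 months and 3.83 ± 1.27 (adjusted p = 0.0722) at 24 months. Without replicate 2 it was 2.37 ± 0.28 (adjusted p = 0.00222) and 3.22 ± 0.38 (adjusted p = 0.000803). Most of its counts were on newly assembled transcripts.

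ST6GALNAC2, its neighbour in the annotation and an enzyme that sialylates core 1, was at 29.3, 16.5 and 28.4 CPM at 1 month, 45.8, 63.4 and 46.7 CPM at 12 months and 61.0, 64.2 and 75.7 CPM at 24 months. All older libraries were above all 1-month libraries. It rose by 1.12 ± 0.30 on the log2 scale at 12 months (adjusted p = 0.0471) and rose by 1.54 ± 0.36 at 24 months (adjusted p = 0.0259), and the 12-month call was lost under the other scalings (adjusted p = 0.0535 and 0.0673), without the low-count filter (0.0594) and with known RefSeq transcripts alone (0.0750). Without 1-month replicate 2 the adjusted p was 0.0142 and 0.0149. ST6GALNAC4 was at 31.3, 53.7 and 43.9 CPM at 1 month, 54.1 to 61.3 CPM at 12 months and 62.5, 93.9 and 138.0 CPM at 24 months, and was higher at both ages without replicate 2. ST6GALNAC5 varied within ages, from 0.0703 to 15.5 CPM at 1 month and from 0.786 to 21.0 CPM at 12 months.

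ST6GAL1 puts alpha-2,6 sialic acid on galactose, chiefly on N-linked chains. It was at 56.9, 128.8 and 61.2 CPM at 1 month, 11.8, 8.59 and 8.08 CPM at 12 months and 11.6, 10.99 and 7.75 CPM at 24 months. The 1-month libraries were all far above the older ones, and replicate 2, the library with the highest thymocyte marker sum, was the highest. ST6GAL1 fell by 3.10 ± 0.44 on the log2 scale at 12 months (adjusted p = 0.0106) and fell by 2.96 ± 0.47 at 24 months (adjusted p = 0.00829), and without replicate 2 by 2.64 ± 0.20 (adjusted p = 0.000610) and 2.45 ± 0.33 (adjusted p = 0.00156). ST6GAL2, the other enzyme of this kind, was at 5.84 CPM or less, and was lower at 24 months without replicate 2 (adjusted p = 0.0378).

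The ST3GAL enzymes add alpha-2,3 sialic acid. ST3GAL5, the GM3 ganglioside synthase, was at 16.8, 19.5 and 20.4 CPM at 1 month, 6.54, 9.75 and 7.42 CPM at 12 months and 6.11, 6.51 and 4.18 CPM at 24 months. The 1-month libraries lay close together and above all others. It fell by 1.23 ± 0.29 on the log2 scale at 12 months (adjusted p = 0.0323) and fell by 1.67 ± 0.39 at 24 months (adjusted p = 0.0249). Most of its counts were on newly assembled transcripts, and with known RefSeq transcripts alone the adjusted p was 0.260 and 0.215.

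ST3GAL4, which caps N-linked and O-linked chains, was at 12.9, 23.2 and 22.6 CPM at 1 month, 7.198, 1.98 and 17 CPM at 12 months and 3.78, 5.38 and 8.36 CPM at 24 months. The 12-month libraries were widely spread and 1 of them lay within the 1-month range, whereas all 24-month libraries were below it. ST3GAL4 fell by 1.65 ± 0.48 on the log2 scale at 24 months at the edge of the threshold (adjusted p = 0.0498), and it was not called without the low-count filter (adjusted p = 0.0522), with all 9 libraries in one fit (adjusted p = 0.0754) or with the values as deposited (adjusted p = 0.0507). ST3GAL2, with the most counts of the family, was at 67.5, 127.1 and 83.2 CPM at 1 month, 36.2 to 54.4 CPM at 12 months and 41.6 to 49.8 CPM at 24 months. Its older libraries were all below the 1-month ones, with log2 fold changes of -0.996 ± 0.35 (adjusted p = 0.0878) and -0.96 ± 0.39 (adjusted p = 0.121). With replicate 2 of the 1-month group left out they were -0.73 ± 0.20 (adjusted p = 0.0307) and -0.65 ± 0.29 (adjusted p = 0.124). ST3GAL3 was at 54.5 CPM in 1-month replicate 2 and 7.10 to 14.6 CPM in the other libraries. ST3GAL6 was higher at 12 months without replicate 2 (adjusted p = 0.0248), and ST3GAL1 was not called.

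FUT8 adds the core fucose of N-linked chains and is the FUT gene with the most counts. It was at 147.1, 128.7 and 102.2 CPM at 1 month, 36.1, 45.2 and 38.2 CPM at 12 months and 37.9, 38.2 and 19.4 CPM at 24 months. The 1-month libraries, replicate 2 included, were all far above the older ones. FUT8 fell by 1.63 ± 0.27 on the log2 scale at 12 months (adjusted p = 0.0136) and fell by 1.90 ± 0.41 at 24 months (adjusted p = 0.0195), and without replicate 2 it fell by 1.65 and fell by 1.88.

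FUT1 and FUT2, chosen after their values were seen, make the H antigen that blood group enzymes build on. FUT1 was at 17.8, 0.562 and 11.8 CPM at 1 month, 65.4, 97.7 and 78.0 CPM at 12 months and 67.1, 110.2 and 97.2 CPM at 24 months. Its older libraries were all above the 1-month ones. The log2 fold change was 3.06 ± 1.00 (adjusted p = 0.0765) and 3.31 ± 0.97 (adjusted p = 0.0513) with all libraries, and 2.44 ± 0.27 (adjusted p = 0.00183) and 2.72 ± 0.39 (adjusted p = 0.00216) without replicate 2. FUT2 was at 34.4, 2.26 and 59.1 CPM at 1 month, 74.9, 79.0 and 52.5 CPM at 12 months and 68.1, 23.1 and 24.9 CPM at 24 months, and was not called. Its LOC transcripts summed with it gave 83.3, 5.37 and 100.6 CPM at 1 month and 166.0 to 212.8 CPM in the older libraries, with log2 fold changes of 1.75 ± 0.87 (adjusted p = 0.187) and 1.70 ± 0.84 (adjusted p = 0.193). FUT1 and FUT2 are closely related in sequence, so reads may have been divided between them.

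FUT3, a Lewis enzyme, had a count of 0 in all 1-month libraries, and was found only in 12-month replicate 3 (1.79 CPM) and 24-month replicates 2 and 3 (1.94 and 1.92 CPM). With the known transcript, listed as LOC102181295, it was at 1.70, 0.281 and 1.03 CPM at 1 month, 3.52, 4.24 and 5.23 CPM at 12 months and 10.0, 10.6 and 10.8 CPM at 24 months. The 3 ages did not overlap on that sum. Its log2 fold change was 2.16 ± 0.67 (adjusted p = 0.0671) at 12 months and 3.49 ± 0.67 (adjusted p = 0.0145) at 24 months. FUT4, FUT10 and FUT11 were not called against 1 month, with or without replicate 2.

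**Figure D4:**
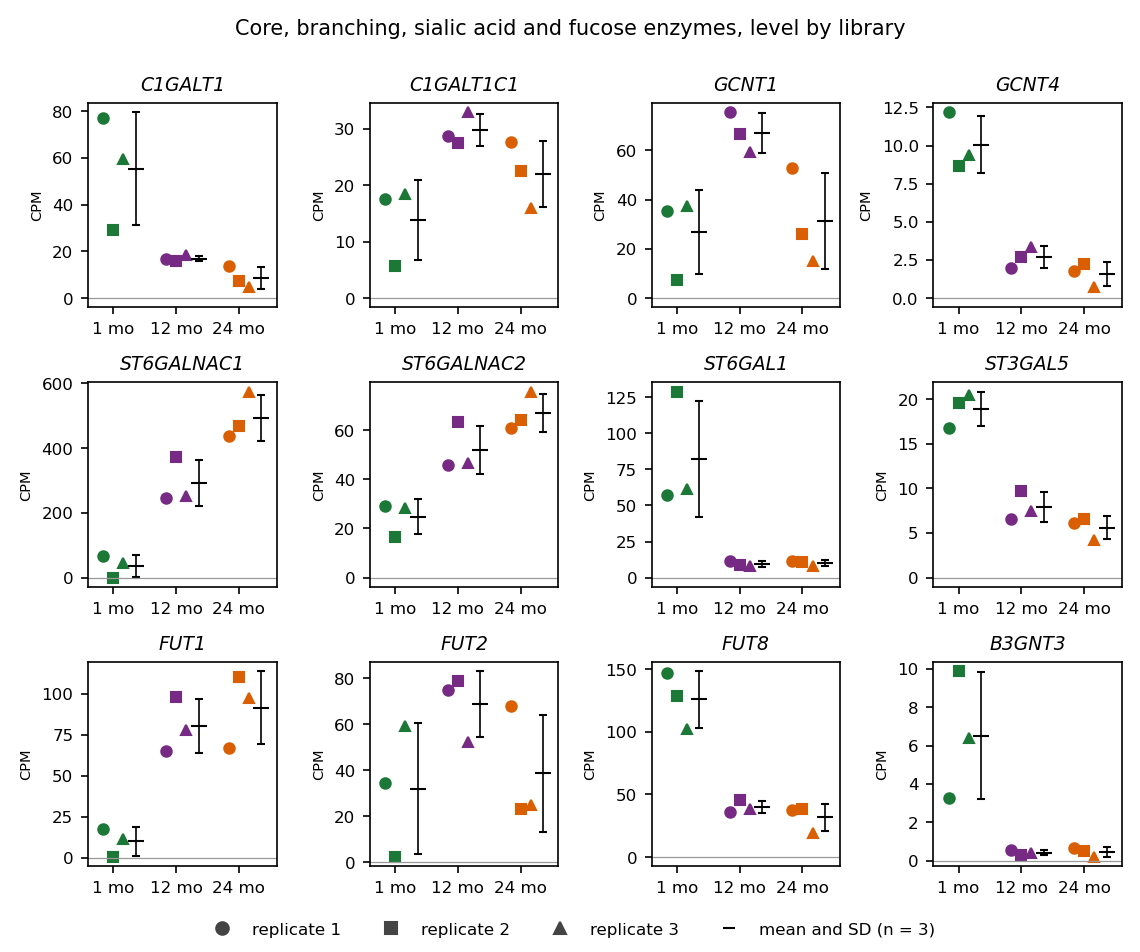
Level (CPM, linear axis) of 12 core, branching, extension, sialic acid and fucose genes in each library by age, with replicates as marker shapes and the mean and SD (n = 3) in black. C1GALT1, GCNT4, ST6GAL1, ST3GAL5, FUT8 and B3GNT3 have all 1-month libraries above all older ones, and ST6GALNAC1, ST6GALNAC2 and FUT1 have them all below.

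Across the families, 1-month replicate 2 lay more often below the other 1-month libraries than above them. Of the 58 glycosyltransferase genes tested without it at 12 months, it lay below both other 1-month libraries in 38 (65.5%), against 49.2% of all genes tested, and above both in 17 (29.3%), against 40.1%. Of the 18 that were then higher at 12 months, it lay below both in 14, or 77.8%, against 70.0% of all genes called higher. GALNT5, ST6GALNAC1, FUT1 and ST6GALNAC5 were among the genes under 0.6 CPM in this library. The salivary acinar markers summed to 111.9 CPM there, and any link with them was not tested. ST6GAL1, GALNT10, ST3GAL3, ST3GAL2 and B3GALT6 were highest in 1-month replicate 2.

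**Figure D5:**
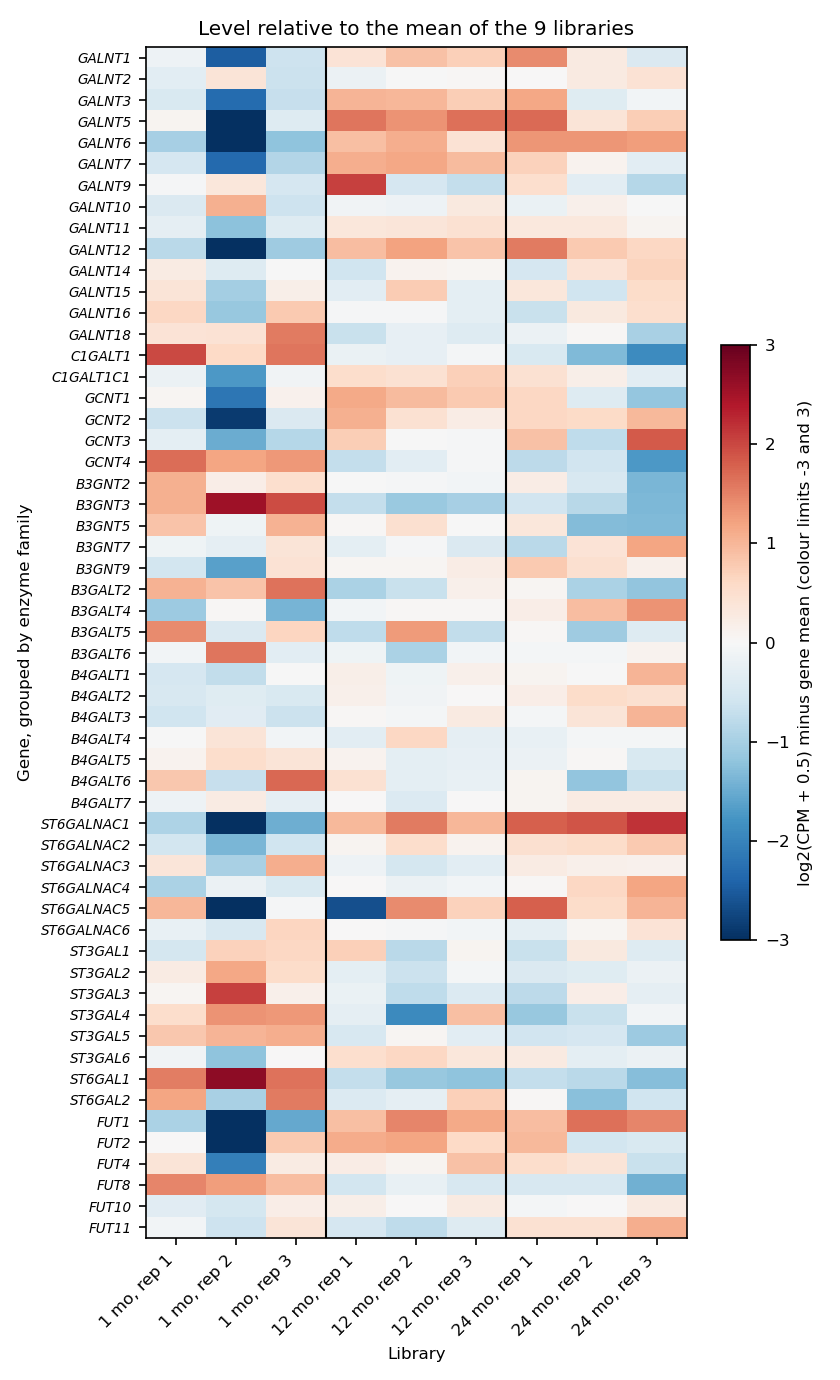
Level of each of the 56 tested glycosyltransferase genes, as log2(CPM + 0.5) minus the gene's mean over the 9 libraries, with genes in rows by family and libraries in columns. The column of 1-month replicate 2 is the bluest for GALNT5, GALNT12, ST6GALNAC1 and FUT1 and the reddest for ST6GAL1, B3GNT3 and ST3GAL3.

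The donors that these enzymes use, and the steps around them, were read from 5 gene lists. Of 25 tested genes of nucleotide sugar synthesis, 7 rose and none fell at 12 months, and 9 rose and none fell at 24 months, with list medians of 1.11 and 1.35 on the log2 scale. Without 1-month replicate 2 it was 14 higher and 1 lower, and 14 higher and none lower, against the background shares given above for these fits. GNE, the first enzyme of sialic acid synthesis, was at 187.6, 34.6 and 148.8 CPM at 1 month, 590.2, 534.5 and 528.0 CPM at 12 months and 723.0, 593.7 and 409.2 CPM at 24 months. GNE rose by 2.21 ± 0.59 on the log2 scale (adjusted p = 0.0456) and 2.32 ± 0.64 (adjusted p = 0.0414). Without 1-month replicate 2 it rose by 1.71 ± 0.16 (adjusted p = 0.00127) and 1.86 ± 0.38 (adjusted p = 0.00891). Both GNE calls were lost with upper-quartile scaling (adjusted p = 0.0585 and 0.0556) and with known RefSeq transcripts alone (0.0626 and 0.0652), and that at 12 months without the low-count filter (0.0501). UAP1L1, a relative of the UDP-GlcNAc pyrophosphorylase, rose by 1.54 ± 0.34 and 2.50 ± 0.46. CMAS, which activates sialic acid, rose at 12 months (1.91 ± 0.49, adjusted p = 0.0408) and had a difference of 1.60 ± 0.54 (adjusted p = 0.0745) at 24 months. The 12-month CMAS call was lost under the same scaling (0.0554) and with RefSeq transcripts alone (0.0604). These genes too were lowest in 1-month replicate 2.

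Of 12 tested nucleotide sugar transporters and relatives, 2 rose and 2 fell at each age. The shares of all genes were 5.8% higher and 11.7% lower at 12 months, and 6.52% and 10.6% at 24 months. Without 1-month replicate 2, 5 transporters were higher and 2 lower at 12 months, and 2 were higher and 2 lower at 24 months. The shares of all genes were then 20.6% and 21.9% at 12 months, and 13.6% and 14.6% at 24 months. SLC35A2, the Golgi UDP-galactose transporter, rose by 1.28 ± 0.31 (adjusted p = 0.0342) and 1.69 ± 0.39 (adjusted p = 0.0240), a result that was lost with known RefSeq transcripts alone (adjusted p = 0.305 and 0.658). SLC35E1, whose substrate is not settled, also rose (1.52 ± 0.26 and 1.69 ± 0.38). SLC35D1, which carries UDP-glucuronic acid and UDP-GalNAc into the endoplasmic reticulum, fell by 1.90 ± 0.44 and fell by 2.01 ± 0.46. SLC35B4 fell by 1.37 ± 0.32 and fell by 1.61 ± 0.47, and was also not called with known RefSeq transcripts alone (adjusted p = 0.532 and 0.488) or, at 24 months, without the low-count filter (0.0543) or with the values as deposited (0.0506). All 4 were called with and without 1-month replicate 2.

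Among other glycosyltransferases, of 29 tested at 12 months none rose and 2 fell, and of 28 at 24 months 1 rose and 2 fell. Without 1-month replicate 2, 8 of 30 were higher and 4 lower at 12 months. At 24 months 4 of 30 were then higher and 2 lower. The background shares of these fits are given above. ST8SIA4, a polysialyltransferase, was at 74.9, 82.98 and 89.97 CPM at 1 month and between 4.48 and 13.6 CPM in the older libraries. It fell by 2.80 ± 0.24 (adjusted p = 0.00606) and fell by 3.18 ± 0.47 (adjusted p = 0.00678). MGAT5, which branches N-linked chains, fell by 1.86 ± 0.49 and fell by 2.22 ± 0.53 and was highest, at 301.6 CPM, in 1-month replicate 2. GBGT1, which belongs to the Forssman glycolipid family, rose at 24 months (1.74 ± 0.47, adjusted p = 0.0394; 0.0621 with known RefSeq transcripts alone).

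Among genes of glycan sulfation, acetylation and removal, 6 of 22 rose and 4 fell at 12 months, and 6 of 21 rose and 3 fell at 24 months. Of all genes tested, 5.8% were higher and 11.7% lower at 12 months, and 6.52% and 10.6% at 24 months. Without 1-month replicate 2, 9 of 22 were higher and 5 lower at 12 months, and 7 of 21 higher and 3 lower at 24 months. The shares of all genes were then 20.6% and 21.9% at 12 months, and 13.6% and 14.6% at 24 months. CHST3, a chondroitin sulfotransferase, was at 140.8, 370.7 and 82.5 CPM at 1 month and 13.7 CPM or less later, and fell by 4.32 ± 0.70 and fell by 4.97 ± 0.68. CHST1, a keratan sulfate sulfotransferase, fell by 5.40 ± 1.005 and fell by 5.84 ± 1.04. CHST4, which sulfates GlcNAc on mucin-like chains, rose by 4.48 ± 1.03 (adjusted p = 0.0315) and 3.59 ± 0.98 (adjusted p = 0.0403), from 1.25 CPM or less at 1 month to between 3.52 and 31.5 CPM. The CHST4 calls were lost with known RefSeq transcripts alone (adjusted p = 0.0855 and 0.133), and at 24 months with upper-quartile scaling (0.0505). Of 13 mucin and mucin-associated genes tested at 12 months 1 rose, and of 14 at 24 months 2 rose. Without 1-month replicate 2, 8 of 14 were higher at 12 months and 5 of 14 at 24 months, and none was lower. MUC19, chosen after its values were seen, was at 23110, 50.7 and 17000 CPM at 1 month and 73040 to 152400 CPM in the older libraries. MUC5B rose by 5.27 ± 1.21 and 6.995 ± 1.73 but was uneven, with 0.966 CPM in 12-month replicate 3 and 0.523 CPM in 24-month replicate 1 against 17.1 to 135.3 CPM in the other older libraries. The MUC5B levels at 24 months overlapped those at 1 month. Its 12-month call was lost with all 9 libraries in one fit (adjusted p = 0.0543), and both calls with the replicate block (0.101 and 0.105).

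The last question was whether the adult gland differs from the adolescent gland. Between 24 and 12 months edgeR called 0 of 55 glycosyltransferase genes and 0 of 14290 genes in all (0.0%). At an unadjusted p under 0.05 there were 7 of the 55 and 1556 of all genes, and DESeq2 called 0 and 25. The 7 were FUT11, B3GALT4, ST6GALNAC1 and ST6GALNAC4, which were higher at 24 months, and C1GALT1, GALNT7 and GCNT1, which were lower, each with an adjusted p of 0.430. The largest, FUT11, was at 2.77, 2.24 and 3.06 CPM at 12 months and 5.86, 5.86 and 9.39 CPM at 24 months, a log2 difference of 1.42 ± 0.36. The libraries of both ages did not overlap for 15 of 55 genes, where 15.4% of all genes did not.

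The count for 24 against 12 months rested on 24-month replicate 1. Without it, 15 of 55 genes were called (7 higher, 8 lower), or 27.3% against 31.6% of all genes (17.5% higher and 14.1% lower), and without any other single library it was 0 (0.0% of all genes). The 7 that were higher were B3GALT4, B3GNT7, B4GALT2, B4GALT3, FUT11, ST6GALNAC1 and ST6GALNAC4. The 8 that were lower were B3GNT5, C1GALT1, FUT2, GALNT3, GALNT5, GALNT7, GCNT1 and ST3GAL6. GCNT1 had a log2 difference of -1.65 ± 0.26 (adjusted p = 0.00982) without replicate 1 and of -1.06 ± 0.40 (adjusted p = 0.430) with it. GALNT3 had -1.10 ± 0.17 (adjusted p = 0.00982) and -0.49 ± 0.37 (adjusted p = 0.497). In 24-month replicates 2 and 3, 15 of 55 genes lay below all 12-month libraries and 24-month replicate 1, and 13 lay above all of them, against 29.5% and 27.9% of all genes. Duct marker sums were 1446 and 1650 CPM in these 2 libraries, against 734.6 CPM in 24-month replicate 1 and 937 to 975 CPM at 12 months, and plasma cell marker sums were 861.8 and 1111 CPM against 1869 CPM and 2546 to 2917 CPM. The part of these lists in the differences was not tested.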

How the data were processed

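Total RNA of 9 glands was fragmented, and dUTP-marked libraries were sequenced on an Illumina HiSeq instrument. The study's methods describe the removal of reads that mapped to ribosomal RNA. The submitters' processing notes name Bowtie2 2.2.8, TopHat2 2.1.1 and Cufflinks, and the study's methods name RSEM for abundance. The genome build and strand setting of the counting are not given in the sources used here. The authors deposited RSEM expected counts for 52739 transcripts (42686 RefSeq and 10053 newly assembled). For each library 1 constant (0.439 to 1.17) was inferred, by which the expected counts appeared to have been multiplied. After division, 25.3% to 29.6% of values from 1 to 60 were whole (within 0.006), against 0.66% to 26.9% before. The remaining values stayed fractional. In 24-month replicate 3 the share was 26.9% both before and after. The divided values sum to 20061986 to 26328835 per library, and the deposited ones to 11546808 to 24901065. The divided counts were summed per gene (RefSeq rows named by gene identifier, 99.92% matched; symbols of new rows in capitals), rounded and used throughout.

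Ages were compared in pairs with edgeR 4.0.16 (R 4.3.3): filterByExpr, TMM, glmQLFit and glmQLFTest on the 6 libraries concerned, with Benjamini-Hochberg adjustment over all genes tested, called at an adjusted p under 0.05. SE is the log2 fold change over the square root of F. The fit was tested on simulated counts. Alternatives were DESeq2 1.42.0 (Wald test and size factors), upper-quartile scaling, no low-count filter, 1 fit of all 9 libraries, a replicate block, RefSeq transcripts alone, an added fold threshold and leaving out each library, and, chosen after seeing the data, the values as deposited, LOC rows added to the gene they encode, and the 3 most abundant genes left out. Genes were named by rule if called or if they had the most counts of their family. In the pathway lists, the rule took the 3 largest called changes without overlap. The other genes with values or tests fell outside this rule, and only some are marked as chosen after their values were seen. The values of 1 pathway gene that this rule names are not reported here. The genes and the 5 pathway and 13 marker lists were chosen with earlier results of these data known. Each library is 1 goat. Counting error alone limits levels near 3 counts, and 3 goats per age limit the tests.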

Additional observations from a re-analysis of the deposited data

How the results depend on the processing

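At 12 against 1 month, the count of glycosyltransferase genes called (9) was 19 by DESeq2, 14 with all 9 libraries in one fit, 5 with known RefSeq transcripts alone, 3 with the fold threshold and 0 to 31 when 1 library was left out. At 24 against 1 month (9) it was 16, 17, 8 and 5, and 0 to 21. At 24 against 12 months (0) it was 0 to 15 when 1 library was left out and 0 otherwise. Over all genes at 12 against 1 month, DESeq2 called 4821 of 15229, the fit of all 9 libraries 3570 of 15333 and RefSeq transcripts alone 1956 of 13938. The glycosyltransferase calls were 33.9%, 24.6% and 9.8% of those tested. At 24 against 1 month these fits called 4020 of 14993, 4368 of 15333 and 1899 of 13824 genes in all. The glycosyltransferase shares were then 28.6%, 29.8% and 15.7%. For pathway list genes (24 at 12 months, 27 at 24 months and 0 between the older ages) DESeq2 gave 45 and 38, RefSeq transcripts alone 15 and 14, the fold threshold 9 and 13, and leaving out 1 library 0 to 56, 0 to 39 and 0 to 33. The median log2 fold change of 0.05 at 12 months was 0.18 with LOC rows added, 0.13 with the values as deposited, 0.12 with the replicate block, -0.05 with RefSeq transcripts alone, 0.08 with all 9 libraries in one fit, -0.005 with DESeq2 and its size factors, -0.025 with no filter and -0.02 to 0.04 without 1 library. The median of 0.36 at 24 months was 0.26 with upper-quartile scaling, 0.23 with RefSeq transcripts alone and 0.25 to 0.59 without 1 library. The median of 0.08 between the older ages was 0.023 with upper-quartile scaling, -0.007 with no filter, 0.049 in one fit, -0.02 with RefSeq transcripts alone and 0.004 to 0.10 without 1 library. The values as deposited gave 9, 10 and 0 calls, where 2719 of 14884, 2637 of 14954 and 0 of 14289 genes were called in all.

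Same-numbered libraries were not paired: their deviations from the age means correlated at -0.097, -0.091 and -0.095 (12 against 1 month), 0.324, 0.136 and -0.166 (24 against 1 month) and -0.035, -0.080 and -0.017 (24 against 12 months). With the replicate number as a block the calls were 1, 10 and 0, those of pathway genes 4, 17 and 0, and the median between the older ages 0.046. Over all genes, the block fits called 808 of 15229, 2048 of 14993 and 8 of 14290. The glycosyltransferase calls were 1.79%, 17.9% and 0.0% of those tested. Signs turned for 2 genes at 24 against 1 month: FUT2 (0.37) and GCNT1 (0.31) were at -0.19 and -0.14 without 1-month replicate 2, and at -0.25 and -0.24 without 24-month replicate 1, within ranges of -0.25 to 1.15 and -0.24 to 0.64 when 1 library was left out. The cause was not tested.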

Other observations

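Some glycosyltransferase genes varied widely within an age. GALNT9 was at 9.79 CPM in 12-month replicate 1 and at 1.26 and 1.02 CPM in the other libraries of that age. ST6GALNAC5 was at 0.786 CPM in 12-month replicate 1 and at 20.98 and 12.5 CPM in replicates 2 and 3, and B3GALT5 at 0.124, 2.04 and 0.132 CPM. GCNT3 was at 2.27, 0.396 and 4.89 CPM at 24 months. ST6GALNAC3 and ST6GALNAC5 are neighbours in the annotation, as are ST6GALNAC4 and ST6GALNAC6 and ST6GALNAC1 and ST6GALNAC2.

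FUT8 was carried by 4 transcripts, of which 1 newly assembled transcript was at 15.6, 21.8 and 46.6 CPM at 1 month, 12.5, 5.496 and 11.9 CPM at 12 months and 9.98 CPM in 24-month replicate 1, and had a count of 0 in 24-month replicates 2 and 3. How RSEM divided reads among such overlapping transcripts was not tested.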
